A study of Mus musculus with 4 samples.

Results

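The oncofetal RNA-binding and chromatin genes examined here are Igf2bp1, Igf2bp2, Igf2bp3, Lin28a, Lin28b, Hmga1 and Hmga2, taken by name through the array's probe annotation. They were selected on their kinship with earlier results of these arrays in view, the ethanol and tissue differences among them, so those differences are given as descriptions. Of these 7 genes, 5 had a probe set named for that gene alone, with 6 probe sets in all, among 19938 genes so named and 35557 probe sets on the array. Igf2bp2 and Hmga1 had no such probe set in the annotation table and were not analysed here. The values were expression on a log2 scale in fetal brain of C57BL/6J mice, read on 4 Affymetrix arrays. The groups were forebrain after maternal PBS (phosphate-buffered saline), forebrain after maternal ethanol, hippocampus after maternal PBS and hippocampus after maternal ethanol, with 1 array each. Dams were dosed intragastrically on 5 successive days, embryonic days 8 to 12, with PBS or with 15% ethanol at a daily 2.9 g per kg, and the fetuses were sampled at embryonic day 18. The number of embryos and litters behind each array is not given in the sources used here, so that a litter difference and an ethanol difference cannot be told apart. A difference within a tissue has no replicate check, and having so few arrays is what limits precision throughout.

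These genes are called oncofetal because they are active in the embryo, are largely shut down in adult tissue and are switched on again in many tumours. Igf2bp proteins bind messenger RNAs through KH domains and govern their stability, transport and translation. Lin28 proteins bind the precursors of let-7 microRNAs and block their maturation, while mature let-7 in turn represses Lin28, Igf2bp and Hmga2 transcripts. Hmga2, an AT-hook protein that bends DNA and opens chromatin, sustains the self-renewal of fetal neural stem cells, and the whole circuit winds down as the brain matures.

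The mature let-7 sequences are shown because let-7 links the members to each other. All 9 of the let-7 and miR-98 5p sequences in RefSeq's GRCm38.p6 table carried 1 and the same seed, bases 2 to 8, printed in capitals.
let-7a-5p: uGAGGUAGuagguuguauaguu
let-7b-5p: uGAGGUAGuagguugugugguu
let-7c-5p: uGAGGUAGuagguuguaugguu
let-7d-5p: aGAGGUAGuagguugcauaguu
let-7e-5p: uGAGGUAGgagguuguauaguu
let-7f-5p: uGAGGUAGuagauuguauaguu
let-7g-5p: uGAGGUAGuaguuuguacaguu
let-7i-5p: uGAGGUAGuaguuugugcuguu
miR-98-5p: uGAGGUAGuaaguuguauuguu
Outside the seed they differed from let-7a-5p at between 1 base (let-7c, let-7e and let-7f) and 4 bases (let-7i). The array carries no probe set for a mature microRNA in this annotation, only for let-7 genes, whose values are given further on.

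The median log2 value of an array ranged from 7.11 to 7.13. Genes were kept if their brightest probe set averaged at least 7.11, the median of the averages of every probe set, which left 11013 genes. Igf2bp1, Igf2bp3 and Lin28b passed, and all 4 of their readings lay above that value. Lin28a and Hmga2 stayed below it on every array. Of 9 kept markers of hippocampal fields, 3 read higher in hippocampus than in forebrain after PBS, when 52.4% of all kept genes did, and 4 after ethanol, when 30.4% did, and none was 1.5-fold higher. Zbtb20, a transcription factor of hippocampal neurons, was higher by 0.35 and 0.23, and Prox1, a dentate granule cell factor, differed by -0.16 and -0.33. Of 10 kept meningeal fibroblast markers, 10 read lower in hippocampus than in forebrain after either treatment, as did 47.5% of all kept genes after PBS and 69.6% after ethanol. Y-linked genes also differed between arrays. Eif2s3y, Uty and Kdm5d were higher by 0.57 to 0.89 after ethanol in forebrain and lower, at -0.26 to -0.35, after ethanol in hippocampus. Hippocampus minus forebrain was 0.62 to 0.85 for them after PBS and -0.21 to -0.45 after ethanol, and the part of fetal sex in the values below was not tested.

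Igf2bp1, which holds beta-actin, Myc and other messenger RNAs and steers them in neurites, read lower after ethanol in both tissues. On its brighter probe set the log2 level was 7.90 in forebrain after PBS and 7.32 in forebrain after ethanol. In hippocampus it was 7.98 after PBS and 7.43 after ethanol. Both ethanol arrays lay below both PBS arrays, an order whose share among all kept genes was not counted. The difference, ethanol minus PBS, was -0.59 in forebrain, a level 1.5-fold lower, and -0.55 in hippocampus, a level 1.47-fold lower. The mean of the differences was -0.57 (SE 0.08 from limma's fit over all kept genes). Of the 3 kept members, Igf2bp1 and Igf2bp3 were lower after ethanol in both tissues, as were 42.3% of all kept genes.

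The dimmer Igf2bp1 probe set, with all readings below 7.11, gave the same order of arrays by treatment. Its levels were 6.16 and 5.69 in forebrain after PBS and ethanol, and 6.22 and 5.64 in hippocampus. The differences were -0.47 and -0.58, with a mean of -0.53. Averaging both probe sets gave -0.53 in forebrain and -0.57 in hippocampus. Both probe sets thus read lower after ethanol in each tissue, and the forebrain difference passed 1.5-fold on the brighter of them alone.

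**Figure D1:**
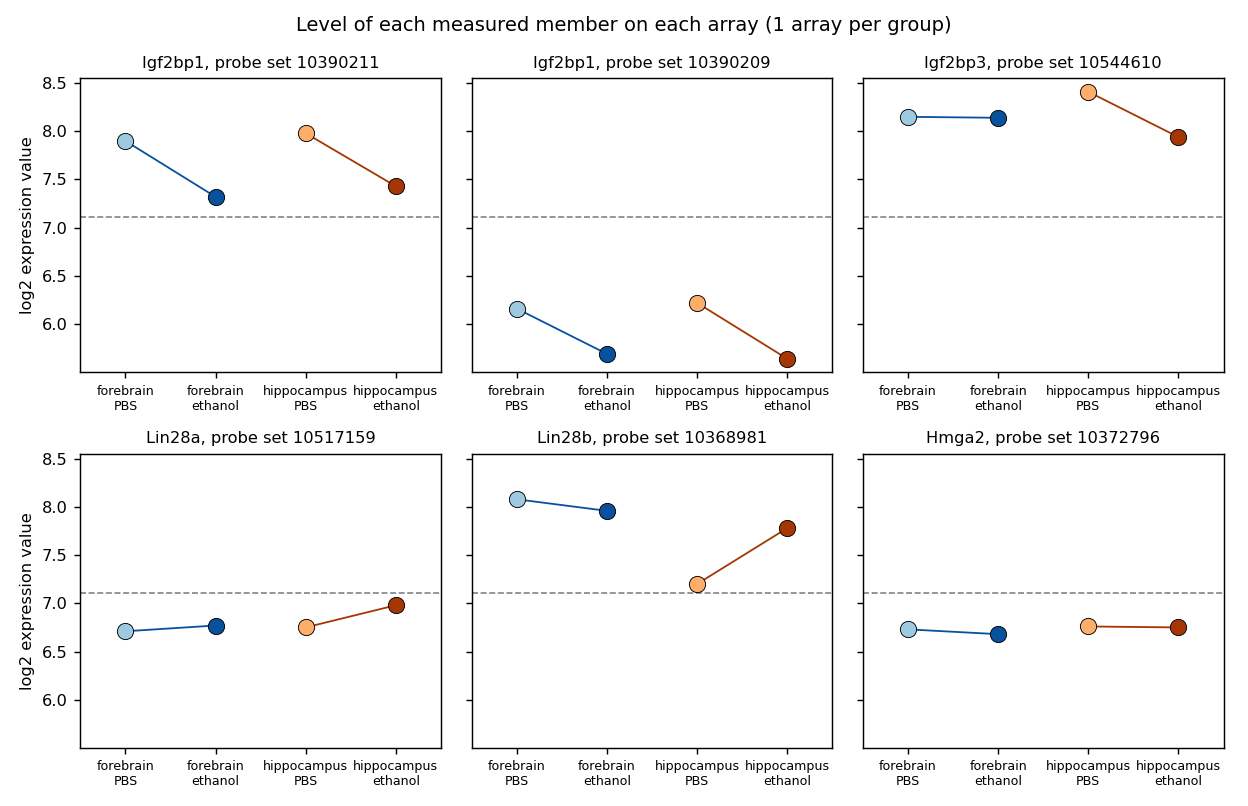
Log2 expression value (vertical axis) of the 6 member probe sets on each of the 4 arrays, with 1 point per array, a line joining PBS to ethanol within a tissue and a dashed line at the expression filter of 7.11. Both Igf2bp1 probe sets read lower in each ethanol array, Lin28b reads lowest in hippocampus after PBS (7.20), and Lin28a and Hmga2 stay below the filter.

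At 1.5-fold, 1 of the 3 kept members was lower after ethanol in forebrain and it was Igf2bp1, in a comparison where 0.0272% of all kept genes were that much lower and 0.0726% that far apart in either direction. Its difference of -0.588 stood just past the mark of 0.585, and after quantile normalization, at -0.57, it was no longer past it. The others past that mark in this direction were the histone genes H4c6, at -0.66, and H2bc3, at -0.60, both named after their values were seen. In hippocampus Igf2bp1 did not reach the mark, which 0.427% of kept genes passed downward and 0.917% in either direction, and 66 kept genes had a lower difference. At 1.3-fold all 3 kept members were apart in hippocampus: Igf2bp1 and Igf2bp3 were lower, as were 3.36% of kept genes, and Lin28b was higher, as were 2.16%. A mark of 0.5, apart from the fold marks, was reached downward in both tissues by 3 kept genes (0.0272%). They were Igf2bp1, H4c6 (-0.66 and -0.83) and H4c4 (-0.51 in each). Igf2bp1 was chosen with ethanol differences in view, so this count and the rank that follows are descriptions. By the mean of the tissues Igf2bp1 ranked 3 from the lowest among 11013 kept genes, after H4c6 and a probe set of the microRNA gene Mir19b-1. That last gene's difference lay almost wholly in hippocampus (-1.09, against -0.06 in forebrain), unlike that of Igf2bp1.

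Between the tissues Igf2bp1 differed little. Of the 3 kept members, Igf2bp1 and Igf2bp3 read higher in hippocampus after PBS (52.4% of kept genes did), and Igf2bp1 alone after ethanol (30.4% did). Hippocampus minus forebrain was 0.08 after PBS and 0.11 after ethanol on the brighter Igf2bp1 probe set, against medians of 0.01 and -0.06 over all kept genes. The dimmer Igf2bp1 probe set gave 0.06 and -0.05, the latter of opposite sign. limma, fitted over all kept genes with treatment as an added term, gave 0.09 (SE 0.08), as a description without a p-value. That fit called 1.13% of all kept genes between tissues (Benjamini-Hochberg adjusted p under 0.05) and 0 of the 3 kept members. The members were chosen with tissue differences in view, so their count is a description too.

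Igf2bp3, a close relative of Igf2bp1 that is strongly fetal and marks aggressive tumours, differed after ethanol in hippocampus and hardly in forebrain. Its log2 level was 8.15 in forebrain after PBS and 8.14 after ethanol. In hippocampus it was 8.41 after PBS, the highest of the 4 arrays, and 7.94 after ethanol, the lowest. The ethanol difference was -0.02 in forebrain and -0.46 in hippocampus, where the level was 1.38-fold lower and short of 1.5-fold. Over all kept genes the medians of these comparisons were -0.01 and -0.08, and 148 kept genes had a lower hippocampal difference than Igf2bp3. Relative to forebrain, hippocampus read 0.26 higher after PBS and -0.19 after ethanol. limma gave a tissue difference of 0.03 (SE 0.11). The difference between the tissues' ethanol differences was -0.45 for Igf2bp3 and 0.04 for Igf2bp1, and neither was tested, since each tissue has 1 array per treatment.

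Lin28b, which keeps let-7 precursors from maturing and is the paralogue of Lin28a, varied most among the kept members, over a range of 0.88. The log2 level was 8.08 in forebrain after PBS, 7.96 in forebrain after ethanol and 7.78 in hippocampus after ethanol. In hippocampus after PBS it was 7.20. That single array stood below the other three, which lay nearer to each other. Hippocampus minus forebrain was -0.88 after PBS, a level 1.84-fold lower, and -0.18 after ethanol. It was the 1 kept member past 1.5-fold between tissues after PBS, where 1.19% of all kept genes were that much lower, 1.28% were that far apart in either direction, and 48 kept genes had a lower value. No kept member was 1.5-fold apart between tissues after ethanol (0.69% of kept genes were, in either direction). limma over both treatments gave -0.53 (SE 0.15), again as a description without a p-value. From the 2 Lin28b tissue differences alone the SE was 0.35.

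With ethanol, Lin28b differed by -0.12 in forebrain and by 0.583 in hippocampus, just under the 1.5-fold mark of 0.585 that 0.49% of kept genes passed upward. With each array centred on its median the hippocampal value was 0.60, and after quantile normalization 0.63, both past the mark. This difference and the tissue difference after PBS share the hippocampus PBS array and are not separate observations of it. Among all kept genes, 21 (0.191%) were lower in forebrain and higher by 0.5 or more in hippocampus.

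Lin28b read low on the array on which meningeal markers were low, and choroid plexus markers were high on it. The summed linear level of 12 meningeal fibroblast markers was 4690 and 4293 in forebrain after PBS and ethanol, and 2239 and 2800 in hippocampus. After PBS 9 of 10 kept meningeal markers were at least 1.5-fold lower in hippocampus, with a median of -1.04, beside 1.19% of all kept genes. After ethanol 5 of 10 were, with a median of -0.60, beside 0.536% of all kept genes. The solute transporter Slc6a13 differed between tissues by -1.43 and -0.72, and the proteoglycan gene Dcn by -1.35 and -0.51. The summed level of 8 choroid plexus markers was 5137 and 5506 in forebrain and 7487 and 6393 in hippocampus. Of 7 kept choroid plexus markers 7 were higher in hippocampus after PBS, with a median of 0.42, and 4 of 7 after ethanol, with a median of 0.03. Over all kept genes 52.4% were higher after PBS and 30.4% after ethanol. Within hippocampus 7 of 7 choroid plexus markers were lower after ethanol than after PBS, with a median of -0.32. Of all kept genes 69.3% were lower, with a median of -0.08. No value of either list was 0 on any array. The part of these tissues in the Lin28b values was not tested, and in tissue RNA fewer cells of a type and less RNA per cell cannot be told apart. Calb1, a hippocampal field marker, was also lowest in hippocampus after PBS, at 7.60, and differed by 0.86 after ethanol there. Nr4a2, of the same list, differed by -0.58. Of 9 kept markers in that list, 4 were higher after ethanol in hippocampus and 5 lower, beside 30.7% and 69.3% of all kept genes.

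**Figure D2:**
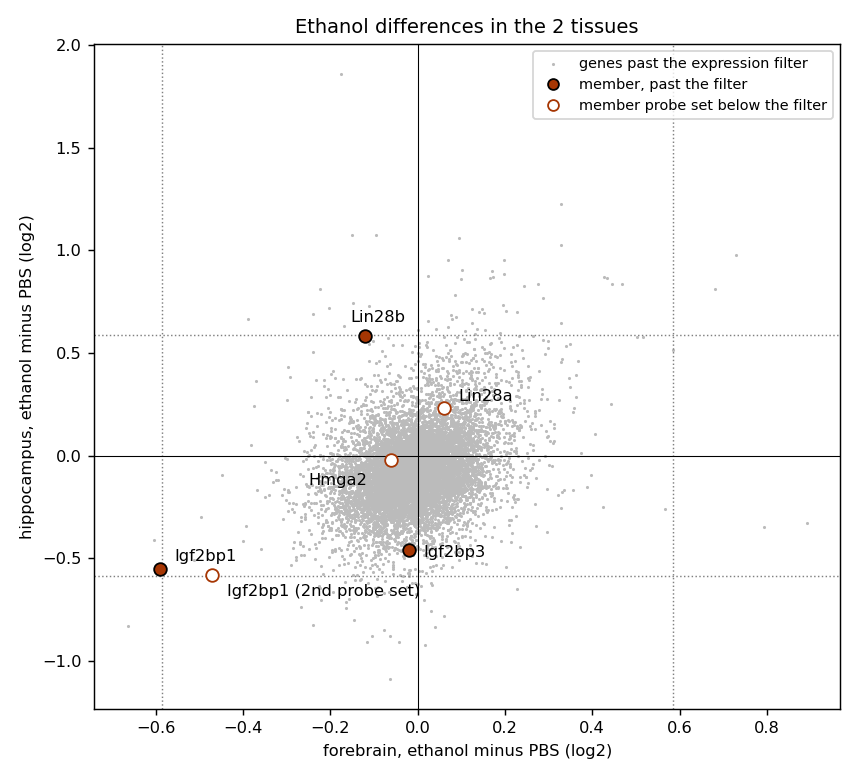
Ethanol minus PBS in forebrain (horizontal axis, log2) against the same in hippocampus (vertical axis, log2) for the 11013 kept genes in grey, with the member probe sets in colour and dotted lines at 1.5-fold. Igf2bp1 lies far to the lower left on both probe sets, Igf2bp3 lies low in hippocampus (-0.46) with a forebrain value of -0.02, and Lin28b lies high in hippocampus (0.58), each with other kept genes farther out.

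Lin28a, the form of early embryos and pluripotent cells that recruits uridyl transferases to let-7 precursors, stayed below 7.11 on each array. Its levels were 6.71 and 6.77 in forebrain after PBS and ethanol, and 6.75 and 6.98 in hippocampus. The hippocampus ethanol array was the highest by 0.21 over the forebrain ethanol array, and the other three lay within 0.06 of each other. The ethanol difference was 0.06 in forebrain and 0.23 in hippocampus.

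Hmga2 was the flattest member, with a range of 0.09 over the 4 arrays. Its levels were 6.73 and 6.68 in forebrain after PBS and ethanol, and 6.76 and 6.75 in hippocampus. Readings this dim show neither an even level nor an absence of expression.

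The measured members differed in their patterns. After ethanol the 3 kept members had a median difference of -0.12 in forebrain, beside -0.01 over all kept genes, with 3 lower. In hippocampus the median was -0.46, beside -0.08, with 2 lower and Lin28b higher. These medians rest on 3 genes, and the hippocampal one was -0.02 with Lin28a and Hmga2 included. It turned to 0.06 with the mean or the dimmer probe set of each gene, which put Igf2bp1 below the filter. Ethanol over both tissues, by limma with Benjamini-Hochberg adjustment, called 0 of 11013 genes (0.0%), with 1075 at an unadjusted p under 0.05 (9.76%).

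For Lin28b, the member with the widest range, the genes most like it were sought by the distance between log2 profiles centred on their own means over the 4 arrays, among 10675 other genes. Nearest were the synaptotagmin gene Syt17 (distance 0.06), the interneuron peptide gene Sst, or somatostatin (0.07), the binding protein gene Igfbp5 (0.07), the kainate receptor gene Grik1 (0.11) and the retinoic acid-binding protein gene Crabp2 (0.11). All of them read lowest in hippocampus after PBS. Sst, for example, read 10.07 and 9.90 in forebrain, 9.10 in hippocampus after PBS and 9.73 in hippocampus after ethanol. The search was repeated for the other kept members after their values had been seen. Nearest to Igf2bp1 were H2bc3 (0.10), the centrosomal gene Cep76 (0.17), the small nucleolar RNA gene Snord35b (0.18), the chaperone gene Dnajb6 (0.22) and Ngdn (0.22), and each read lower in both ethanol arrays than in both PBS arrays. Nearest to Igf2bp3 were the DNA damage kinase gene Atm (0.02), Nckap5 (0.03), the DNA junction resolvase gene Gen1 (0.03), the nuclear membrane gene Nrm (0.04) and the mitotic phosphatase gene Cdc25b (0.04). Likeness over 4 arrays is a description only.

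**Figure D3:**
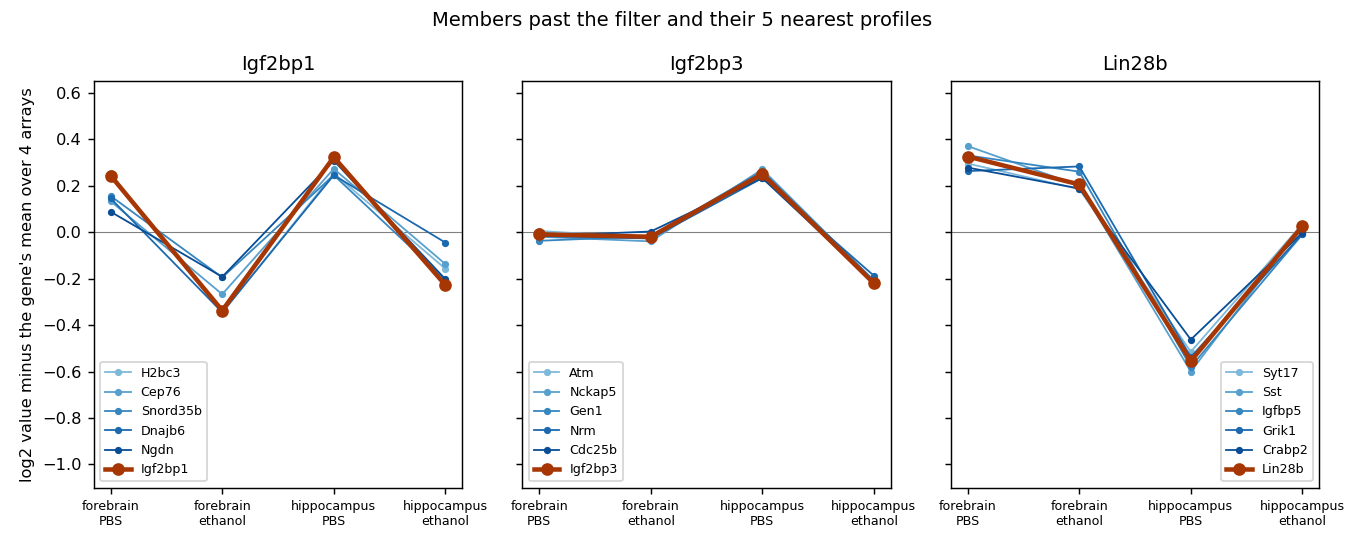
Log2 value minus the gene's own mean over the 4 arrays (vertical axis) for each kept member (thick line) and the 5 genes with the nearest profile (thin lines), by array; lines only join the values of 1 gene. Igf2bp1 and its neighbours are low in both ethanol arrays, Igf2bp3 and its neighbours are highest in hippocampus after PBS, and Lin28b and its neighbours are lowest there.

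Among the let-7 genes that Lin28 proteins act on, 11 of 13 listed had a probe set and 4 were kept: Mirlet7a-2, Mirlet7c-1, Mirlet7e and Mirlet7i. Such a probe set reads primary transcript or hairpin RNA, and not the mature microRNA. Their hairpins are printed here, as RefSeq's GRCm38.p6 table gives them, because Lin28 zinc knuckles are known to bind GGAG in let-7 precursors; each GGAG is in capitals.
Mirlet7a-2, chr9:41536716-41536811, plus strand: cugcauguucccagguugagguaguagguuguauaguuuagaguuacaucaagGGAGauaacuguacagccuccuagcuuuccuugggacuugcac
Mirlet7c-1, chr16:77599657-77599750, plus strand: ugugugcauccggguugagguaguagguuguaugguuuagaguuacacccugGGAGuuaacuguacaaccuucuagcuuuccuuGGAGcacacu
Mirlet7e, chr17:17830352-17830444, plus strand: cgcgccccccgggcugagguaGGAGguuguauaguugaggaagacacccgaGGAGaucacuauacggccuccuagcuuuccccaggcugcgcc
Mirlet7i, chr10:122985640-122985724, minus strand: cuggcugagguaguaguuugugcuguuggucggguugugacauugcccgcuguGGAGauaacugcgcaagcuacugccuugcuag
GGAG, searched on the transcribed strand, was in 9 of 12 let-7 and miR-98 hairpins, and in 437 of the 992 other hairpins of that table (44.1%), whose median length of 79 bases is below that of each hairpin printed here. In Mirlet7e 1 of the matches lies within the 5p arm. The hairpins of Mirlet7b, Mirlet7c-2 and Mir98 did not hold these letters.

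The kept let-7 genes read highest in hippocampus after PBS, the array on which Lin28b was lowest, Mirlet7e and Mirlet7i by narrow leads. The share of all kept genes highest on that array was not counted, and a link to Lin28b was not tested. Mirlet7c-1 read 8.36 and 8.30 in forebrain after PBS and ethanol, 8.80 in hippocampus after PBS and 8.40 in hippocampus after ethanol. Its hippocampal ethanol difference was -0.40 and its tissue difference after PBS 0.44. Mirlet7a-2 read 7.20, 7.07, 7.41 and 7.22 on the same arrays in that order. Mirlet7e read 7.63, 7.46, 7.66 and 7.55, and Mirlet7i 7.57, 7.49, 7.63 and 7.55 on them. After ethanol 4 of 4 kept let-7 genes read lower in forebrain (median -0.10) and 4 of 4 in hippocampus (median -0.15), where 53.8% and 69.3% of all kept genes read lower. None reached 1.5-fold. The other 7 let-7 genes were below the filter. Of these, Mirlet7a-1, Mirlet7d and Mir202 read highest in hippocampus after PBS. Mirlet7f-1 and Mirlet7g read highest in forebrain after ethanol, and Mirlet7f-2 and Mir98 in forebrain after PBS.

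Other genes that let-7 is known to repress differed little. Of 21 kept targets besides the members, 16 read lower after ethanol in forebrain (median -0.04) and 18 in hippocampus (median -0.17, beside -0.08 over all kept genes). Lower readings were also seen in 53.8% and 69.3% of all kept genes in those tissues. Tgfbr1, a receptor of the TGF-beta pathway, was the 1 target past 1.5-fold, at -0.70 in hippocampus, where 0.427% of all kept genes were that much lower. It read 9.92 and 9.93 in forebrain, 10.21 in hippocampus after PBS and 9.50 in hippocampus after ethanol. The cyclin gene Ccnj differed by -0.34 there, and Ccnd1, the cyclin of early cell cycle entry, by -0.17 in each tissue. Irs2, an insulin receptor adaptor gene, differed by 0.15 in forebrain and -0.05 in hippocampus. Trim71, another let-7 target of embryonic cells, stayed below the filter.

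Genes that make let-7 or dispose of its precursors kept close to the bulk of genes. Of 14 kept genes, 10 read lower after ethanol in forebrain (median -0.04) and 14 in hippocampus (median -0.12). Over all kept genes the shares lower were 53.8% and 69.3%, and none of the 14 was past 1.5-fold. Dicer1, which cuts hairpins to the mature form, differed by -0.08 and -0.21, and the helicase gene Ddx5 by -0.08 and -0.10. Khsrp, which promotes let-7 maturation, differed by -0.04 and -0.25. Of the genes that add uridines to Lin28-bound precursors and degrade them, Tut4 differed by -0.02 and -0.07, Tut7 by -0.02 and -0.15, and the exonuclease gene Dis3l2 by 0.03 and -0.07. Dicer1 also stands in the list of let-7 targets.

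More transcripts known to be bound by Igf2bp proteins read higher than lower after ethanol, by small amounts. Of 10 kept genes, 7 were higher after ethanol in forebrain (median 0.05) and 7 in hippocampus (median 0.09), where 46.1% and 30.7% of all kept genes were higher, and none was past 1.5-fold. Gap43, a growth cone protein gene, differed by 0.12 and 0.26, and Sox2, a stem cell factor gene, by 0.12 and 0.11. Rgs4, a regulator of G-protein signalling, differed by -0.07 and 0.28. Igf2, for which the family is named, read 10.01 and 9.94 in forebrain after PBS and ethanol, and 9.10 and 9.31 in hippocampus. Its ethanol differences were -0.07 and 0.21, and its tissue differences -0.91 after PBS and -0.64 after ethanol ran alongside those of the meningeal markers; their part in it was not tested. Actb read between 13.21 and 13.30 on all arrays, near the top of the scale.

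The protein partners of Igf2bp granules showed none past 1.5-fold among 17 kept genes, with medians of 0.03 in forebrain and -0.05 in hippocampus. The cold-shock gene Ybx1 differed by 0.17 and 0.11, the dendritic transport gene Stau2 by 0.12 and 0.08, Syncrip by -0.07 and -0.20, and Khdrbs1 by -0.10 and 0.18. Of 10 kept high mobility group genes other than the members, 6 read lower in forebrain (median -0.02) and 8 in hippocampus (median -0.11). The shares of all kept genes that read lower were 53.8% and 69.3%. Hmgn5, a nucleosome-binding protein gene, differed most, at -0.18 and -0.46. Hmgn1, of the same family, differed by 0.07 and -0.30, and Hmgb1, an abundant DNA-bending protein gene, by 0.11 and -0.16.

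**Figure D4:**
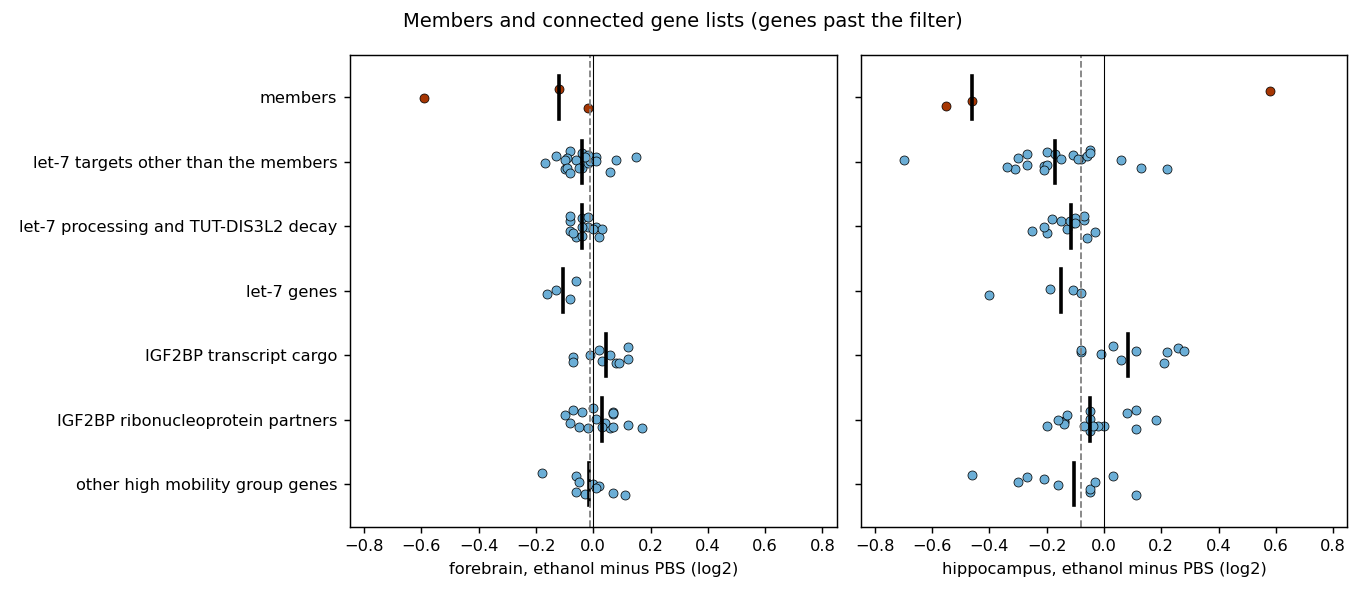
Ethanol minus PBS (horizontal axes, log2) in forebrain and hippocampus for kept genes of each list, 1 point per gene, with a black bar at the list's median and a dashed line at the median of all kept genes. Igf2bp1 lies at -0.59 in forebrain, outside the span of every other point there, and Tgfbr1 lies at -0.70 in hippocampus.

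Markers of neural progenitors, the cells in which these genes are best known, are given beside the members. Of 14 kept progenitor markers, 7 read lower after ethanol in forebrain (median -0.01), as did 53.8% of all kept genes. In hippocampus 10 of 14 read lower (median -0.17), as did 69.3% of all kept genes. The proneural factor gene Neurog2, at -0.61, was the 1 past 1.5-fold there, where 0.427% of all kept genes were that much lower. Eomes, of intermediate progenitors, differed by 0.01 in forebrain and -0.48 in hippocampus, and Mki67, of dividing cells, by -0.17 and -0.18. Igf2bp3 and Eomes were both highest in hippocampus after PBS, as were most of the 14 progenitor markers. The exceptions were Sox2, Hes5 and Fabp7, highest in hippocampus after ethanol, and Slc1a3, highest in forebrain after ethanol. The share of all kept genes highest in hippocampus after PBS was not counted. The part of progenitors in the Igf2bp1 and Igf2bp3 values was not tested. Neuron markers had medians of 0.03 in forebrain and -0.07 in hippocampus, with Neurod2, at -0.62 in hippocampus, the 1 of 11 past 1.5-fold. Nefl, a neurofilament gene of the same list, was higher by 0.35 in forebrain and 0.54 in hippocampus. Endothelial markers, at -0.07 and -0.09, had none past it, and nor had the 2 kept erythroid markers, at -0.12 and 0.05, or the 5 kept microglia and macrophage markers, at 0.01 in each tissue. Markers of the telencephalon had medians of -0.06 and -0.35, with Lhx2 at -0.67 in hippocampus. Of the 5 kept, 4 read lower in hippocampus (69.3% of all kept genes did), and Bcl11b differed by -0.20 in forebrain and 0.30 in hippocampus.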

How the data were processed

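The authors' deposited log2 values of 4 arrays were used as they stand. Their scale, not stated in the labels, was inferred from a span of 1.58 to 13.96. The submitters' processing notes name MAS5, with version and settings not given in the sources used here. Per the labels' protocols, biotinylated cRNA was made from 6 ug of total RNA. Probe sets were named through the platform annotation, and only the 21789 with 1 symbol were used (1621 had several, 12147 none). RefSeq's table held the gene identifiers of 21698, and updating through it altered 0 symbols. Each gene was represented by its probe set with the highest mean. The authors' genome build is not given in the sources used here, so gene positions are not printed. Within a tissue or treatment 2 arrays were subtracted, with no test. limma 3.58.1 in R 4.3.3 fitted treatment and tissue as additive terms over all kept genes (eBayes with a trend, Benjamini-Hochberg at 0.05, 1 residual degree of freedom), and its p-values reflect only how these arrays vary. It was tested on simulated data. Other steps used Python 3.11.15 with matplotlib 3.10.9, numpy 2.4.6 and pandas 2.3.3.

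The members and the 15 gene lists were chosen with earlier results of these data known. Named genes were drawn from all members, the 2 genes of each connected list with the largest ethanol difference in each tissue, and the 5 nearest profiles to the member with the widest range; others are of the same lists. Alternatives were array scaling, the filter, the probe set choice, the fold mark and the variance prior. No promoter is printed, as no comparison bears on one.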

Additional observations from a re-analysis of the deposited data

Results flagged for a closer look

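Lin28b differed after ethanol in opposite directions in the tissues, at -0.12 in forebrain and 0.58 in hippocampus, so that the hippocampal difference exceeded the forebrain one by 0.70. The difference between the tissues was not tested, since there is 1 array for each tissue and treatment. Among 11013 kept genes it ranked 23 from the highest on this measure. Lin28b was the 1 measured member of 5 whose ethanol differences had opposite signs. Opposite signs were common among all kept genes: 53.8% were lower in forebrain and 69.3% in hippocampus, but 42.3% in both.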

How the results depend on the processing

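Only the scalings, and for Igf2bp1 the choice of probe set, can alter a member's difference. Of the 48 differences so recomputed, 47 moved by no more than the SD of that comparison over all kept genes. That SD is a spread between genes and not a replicate error, which 1 array per group cannot give. Of the 48, 1 moved further (Igf2bp1 in forebrain, -0.47 on its dimmer probe set). While 0 past 1.5-fold changed sign, smaller differences did, as for Igf2bp1 between tissues after ethanol (0.11, and -0.05 on its dimmer probe set). The count of members 1.5-fold apart in forebrain after ethanol, 1 as reported, was 0 after quantile normalization, with the 75th percentile filter, with the mean or the dimmer probe set, and at 2-fold. In hippocampus, 0 as reported, it was 1 (higher) with arrays centred or after quantile normalization, and 3 at 1.3-fold. Between tissues after PBS, 1 as reported, it was 0 with the 75th percentile filter and at 2-fold. The 75th percentile filter left no member, so its medians have no value. The median of kept members in hippocampus after ethanol was -0.02 with no filter and 0.06 with the mean or dimmer probe set, under which Igf2bp1 drops below the filter. For the same reason the tissue median after PBS turned from 0.08 to -0.31. The tissue median after ethanol turned from -0.18 to 0.07 with no filter, which adds Lin28a and Hmga2. limma's ethanol calls over all genes, 0 as reported, were 14 after quantile normalization and 7 with the 75th percentile filter. No paired analysis was possible because each group has 1 array, so replicate numbers give no block; tissue is already a term of limma's fit. Dim readings of Lin28a and Hmga2 limit what those can show.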

Other observations

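The transcripts that carry let-7 genes along with other microRNAs were looked at after their values had been seen. Mir99ahg, the long host transcript of Mir99a, Mirlet7c-1 and Mir125b-2, had 4 probe sets, and each read highest in hippocampus after PBS. Hippocampus minus forebrain after PBS was 0.30, 0.39, 0.32 and 0.46 for them, and ethanol minus PBS in hippocampus -0.32, -0.30, -0.39 and -0.25. The microRNA genes on it gave like values, with Mir99a at 0.43 and -0.51 and Mir125b-2 at 0.61 and -0.60, the latter at readings of 5.66 to 6.29 that lie below the filter. In forebrain the ethanol differences of these 6 probe sets lay between -0.17 and 0.01.

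The host transcript of the let-7a-2 cluster, Mir100hg, read 10.43 and 10.37 in forebrain after PBS and ethanol, and 10.62 and 10.40 in hippocampus. Mir125b-1 of the same cluster differed by -0.51 after ethanol in hippocampus and by -0.11 in forebrain, and Mir100 by -0.16 and -0.22. Mir99b, next to Mirlet7e, differed by 0.00 in forebrain and -0.13 in hippocampus. These probe sets do not measure mature microRNAs.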
